A study of Mus musculus with 45 samples.

Results

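The aquaporins are a gene family of membrane channels, and the 10 members described here are Aqp1, Aqp2, Aqp3, Aqp4, Aqp5, Aqp6, Aqp7, Aqp8, Aqp9 and Aqp11, chosen by name from the 22080 genes of the array table. Their expression was measured in liver, kidney and brain of male C57BL/6 mice, in a study of 2 extracts of the medicinal mushroom Ganoderma lucidum. The mice were 7 weeks old when taken into the study. Control mice received the AIN-93 diet, and HCD mice the same diet with 0.5% cholesterol. The other groups received the high-cholesterol diet with simvastatin, a statin that inhibits HMG-CoA reductase, at 0.03 g per 100 g (HCD+Sim), or with 1% of an extract from mushrooms grown on oak sawdust (HCD+Gl-1) or on sawdust with 10 mM acetylsalicylic acid (HCD+Gl-2). There were 8 mice per diet, sacrificed on day 43 after food and water had been withdrawn. RNA of 4 mice made pool A, that of 4 others pool B, and pool C combined both, so that the 3 arrays of each group rest on 2 separate pools, and the p-values measure the spread between these arrays.

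Aquaporins let water cross membranes along osmotic gradients, and the aquaglyceroporins among them (Aqp3, Aqp7 and Aqp9) also pass glycerol. In the kidney, Aqp1 carries water out of the proximal tubule and thin descending limb, while vasopressin brings Aqp2 to the apical membrane of collecting duct principal cells, whose basolateral membrane holds Aqp3 and Aqp4. In hepatocytes, Aqp8 lies in vesicles below the canalicular membrane and in mitochondria, and Aqp9 takes up glycerol from the blood. In brain, Aqp4 lines the astrocyte endfeet around vessels, and Aqp1 sits in the choroid plexus. All 10 names matched 1 protein-coding gene of the RefSeq annotation (GRCm38.p6), in which Aqp2, Aqp5 and Aqp6 neighbour each other, as do Aqp7 and Aqp3.

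The start regions of Aqp8 and Aqp2 are shown, 250 bases before to 50 after the start. Aqp8 is the member that changed with diet in liver. Aqp2 is the one called in kidney by a test of any diet difference. Both lie on the plus strand of RefSeq's GRCm38.p6, Aqp8 at chr7:123462044-123462343 and Aqp2 at chr15:99578806-99579105. Capitals mark the matches, on either strand, to 7 motifs searched.
Aqp8: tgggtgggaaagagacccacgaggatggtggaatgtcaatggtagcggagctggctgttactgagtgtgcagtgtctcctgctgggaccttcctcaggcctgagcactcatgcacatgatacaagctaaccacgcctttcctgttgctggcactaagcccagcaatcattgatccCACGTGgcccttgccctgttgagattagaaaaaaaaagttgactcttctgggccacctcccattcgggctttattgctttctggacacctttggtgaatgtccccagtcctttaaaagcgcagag
Aqp2: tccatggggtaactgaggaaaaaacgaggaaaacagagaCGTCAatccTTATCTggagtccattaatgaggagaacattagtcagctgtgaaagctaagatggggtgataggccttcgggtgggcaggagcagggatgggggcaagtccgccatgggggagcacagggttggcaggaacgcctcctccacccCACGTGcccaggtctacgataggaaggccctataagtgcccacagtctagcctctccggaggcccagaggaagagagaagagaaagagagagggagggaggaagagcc
The Aqp8 window held 1 match, the E-box CACGTG, which 7.15% of all 32817 such windows hold. The Aqp2 window held the same E-box, a cyclic AMP response half-site (TGACG, in 20.8% of windows) and a GATA site (AGATAA, in 11.2%), the last 2 on the opposite strand and none of them overlapping another. The TATA box TATAAA (13.6%), the sterol regulatory element TCACNCCAC (1.24%), the nuclear receptor half-site AGGTCA (16.3%) and the HNF1 half-site GTTAAT (7.1%) had no match in either window. Of the 9 members whose windows were searched, 4 held the E-box. A match is a stretch of letters only, and binding was not measured.

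The tissue labels were checked against markers, because a description line names brain tissue also on the 30 liver and kidney arrays. The markers followed the array titles. On the Control diet, albumin (Alb) lay between 13.7 and 13.8 on the log2 scale in liver and averaged 7.80 in kidney and 6.80 in brain. All 6 kidney markers were higher in kidney than in liver and brain, and all 6 brain markers were higher in brain, with Snap25 at 13.4 in brain against 6.02 in liver.

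All values are the authors' normalised log2 expression, 1 probe set per gene, so that levels are compared between tissues and diets within a gene but not between genes. A gene was called differentially expressed (DE) where limma gave an adjusted p of 0.05 or less (Benjamini-Hochberg, over all genes) and the log2 fold change exceeded 0.7 in either direction. With 3 arrays a group, an exact permutation test of a single value cannot go below p = 0.1. As a gauge of near-background signal, 1311 olfactory and vomeronasal receptor genes had a 95th percentile of 6.18 in liver, 6.11 in kidney and 6.06 in brain. Bulk RNA cannot tell fewer cells of a type from less RNA per cell.

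The aquaporins separated the 3 organs on the Control diet. In limma, 8 of 10 members were DE between liver and kidney, 2 of them higher in liver and 6 in kidney, where 16.8% of all genes were DE. Between liver and brain 6 of 10 members were DE, 4 of them higher in liver, against 32.7% of all genes. Between kidney and brain 6 of 10 members were DE, all of them higher in kidney, against 30% of all genes.

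Aqp8 and Aqp9 were the liver members. Aqp9 read 11.0, 11.1 and 10.8 in pools A, B and C of Control liver, 5.20, 5.24 and 5.00 in kidney and 5.25, 5.34 and 5.18 in brain. Liver thus stood apart, by 5.84 ± 0.0981 (SE) over kidney and 5.74 over brain on the log2 scale (adjusted p = 3.06e-36 and 3.40e-36), while kidney and brain did not differ beyond their spread (-0.11, adjusted p = 0.365). Aqp8 read 9.55, 9.70 and 9.52 in Control liver, 5.89, 6.12 and 6.05 in kidney and 5.67, 5.63 and 5.80 in brain. Its liver level exceeded that of kidney by 3.57 and that of brain by 3.89, each ± 0.126 (adjusted p = 2.63e-25 and 6.61e-27). Kidney lay above brain by 0.32 (adjusted p = 0.0275), short of the fold threshold. In kidney, 12 of 15 arrays and in brain all 15 had Aqp8 under the 95th percentile of the receptor genes, and all kidney and brain arrays had Aqp9 under it.

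Aqp1, Aqp2, Aqp3, Aqp6 and Aqp7 were highest in kidney, by more than the fold threshold against both other tissues. Aqp1 averaged 10.9 ± 0.0528 (SD, n = 3) in kidney, 8.92 ± 0.108 in liver and 6.14 ± 0.0593 in brain, and each step was DE (kidney over liver by 1.99, liver over brain by 2.79). Aqp1 is also made by bile duct and endothelial cells, which whole liver holds. Aqp2, the vasopressin-regulated channel, averaged 8.84 in kidney, 7.10 in liver and 6.72 in brain, so that kidney exceeded liver by 1.74 and brain by 2.13. Liver over brain was 0.38 (adjusted p = 5.70e-04), short of the fold threshold. Aqp3 averaged 9.00 in kidney, 6.38 in liver and 6.09 in brain. Its brain values crossed the receptor percentile, with 6 of 15 arrays below it.

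Aqp7, the glycerol channel of the proximal straight tubule and of fat cells, averaged 9.35 in kidney, 5.95 in liver and 5.29 in brain. All 30 liver and brain arrays had it under the receptor percentile, so the measured kidney differences of 3.40 and 4.06 compare a clear signal with one near background. Aqp6, an anion-permeable channel of intercalated cell vesicles, averaged 9.36 ± 0.0689 in kidney and 5.27 ± 0.359 in liver, a measured difference of 4.08. All 15 liver arrays had it under the receptor percentile, so this too sets a clear signal against one near background. Brain Aqp6 spread so widely that its Control group, at 7.76, 7.93 and 5.40, overlapped liver. Kidney exceeded brain by 2.33, or by 1.51 without brain pool C. Aqp11, an unorthodox member of the endoplasmic reticulum, stood at 9.38 in kidney, 9.02 in liver and 7.29 in brain, with liver and kidney 0.36 apart (adjusted p = 7.78e-06) and brain lower than both by 1.73 and 2.09.

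Aqp4 was high in both brain and kidney. In brain it read 9.55, 9.77 and 8.79, in kidney 8.93, 8.83 and 8.98 and in liver 6.59, 6.45 and 6.87. Brain pool C overlapped the kidney arrays, and brain exceeded kidney by 0.45 (adjusted p = 0.017), short of the fold threshold. Without that pool, kidney against brain was -0.75 in Aqp4 (adjusted p = 5.41e-05), a DE difference. Liver lay below brain by 2.74 and below kidney by 2.28. Aqp5, the channel of secretory glands and lung, was DE in no tissue comparison, with 7.32 in liver, 6.97 in kidney and 6.86 in brain. Liver exceeded the others by 0.35 and 0.46 (adjusted p = 0.00564 and 2.29e-04), and kidney and brain did not differ beyond their spread (0.11, adjusted p = 0.406).

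**Figure D1:**
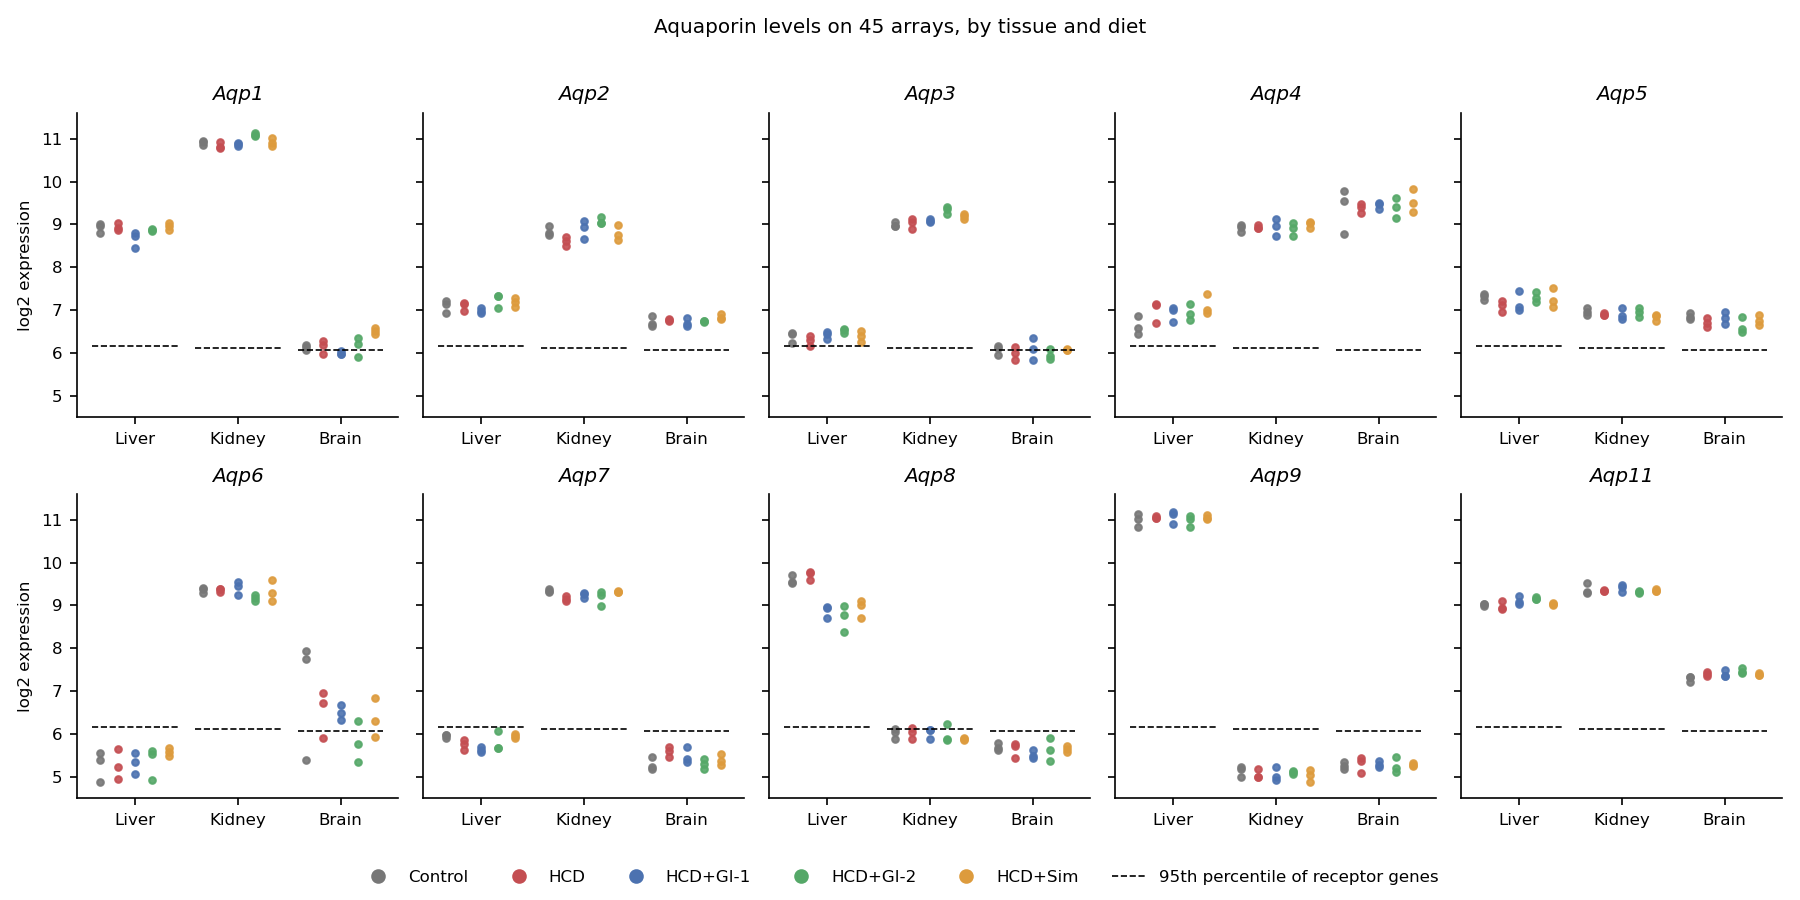
Log2 expression of the 10 aquaporins on 45 arrays, 1 point per array, by tissue (x axis) and diet (colour), with dashed lines at the 95th percentile of the receptor genes. Aqp9 stands near 11.0 in liver only, and the 9 treated liver arrays of Aqp8 lie below the 6 untreated ones.

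The genes whose levels ran closest to each member over all 45 arrays followed the same tissue order. They included the urea cycle enzyme Cps1 for Aqp9 (Pearson r = 0.999), kidney cadherin Cdh16 and the brush border protein Vil1 for Aqp3 (both 0.996) and the proximal tubule exporter Slc47a1 for Aqp1 (0.996). For Aqp4 the closest was Dock9 (0.988), and for Aqp5, which hardly varied by tissue, BC001981 at 0.913. These coefficients describe arrays that share tissue, pools and normalization.

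Few aquaporins were DE between diets. In liver, Aqp8 was the 1 of 10 members DE with Gl-1 (0.163% of all genes), with Gl-2 (0.303%) and with simvastatin (0.258%) against HCD, and no member was DE with HCD against Control (0.245%). In kidney, 0 of 10 members were DE in limma with HCD against Control (0.0408% of all genes), Gl-1 (0.131%), Gl-2 (0.335%) or simvastatin (0.14%) against HCD. An unadjusted p under 0.05 was reached by 1, 1, 3 and 0 members, and by 988, 883, 1980 and 1366 of all 22080 genes. In brain, 0 of 10 were DE with HCD (0.0317%), Gl-1 (0.00906%), Gl-2 (0.0226%) or simvastatin (0%). There 1, 0, 2 and 1 members had an unadjusted p under 0.05, as did 1423, 1226, 1468 and 1220 of all genes. The family members outside the 10, Mip and Aqp12, had no DE call in these 12 comparisons.

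**Figure D2:**
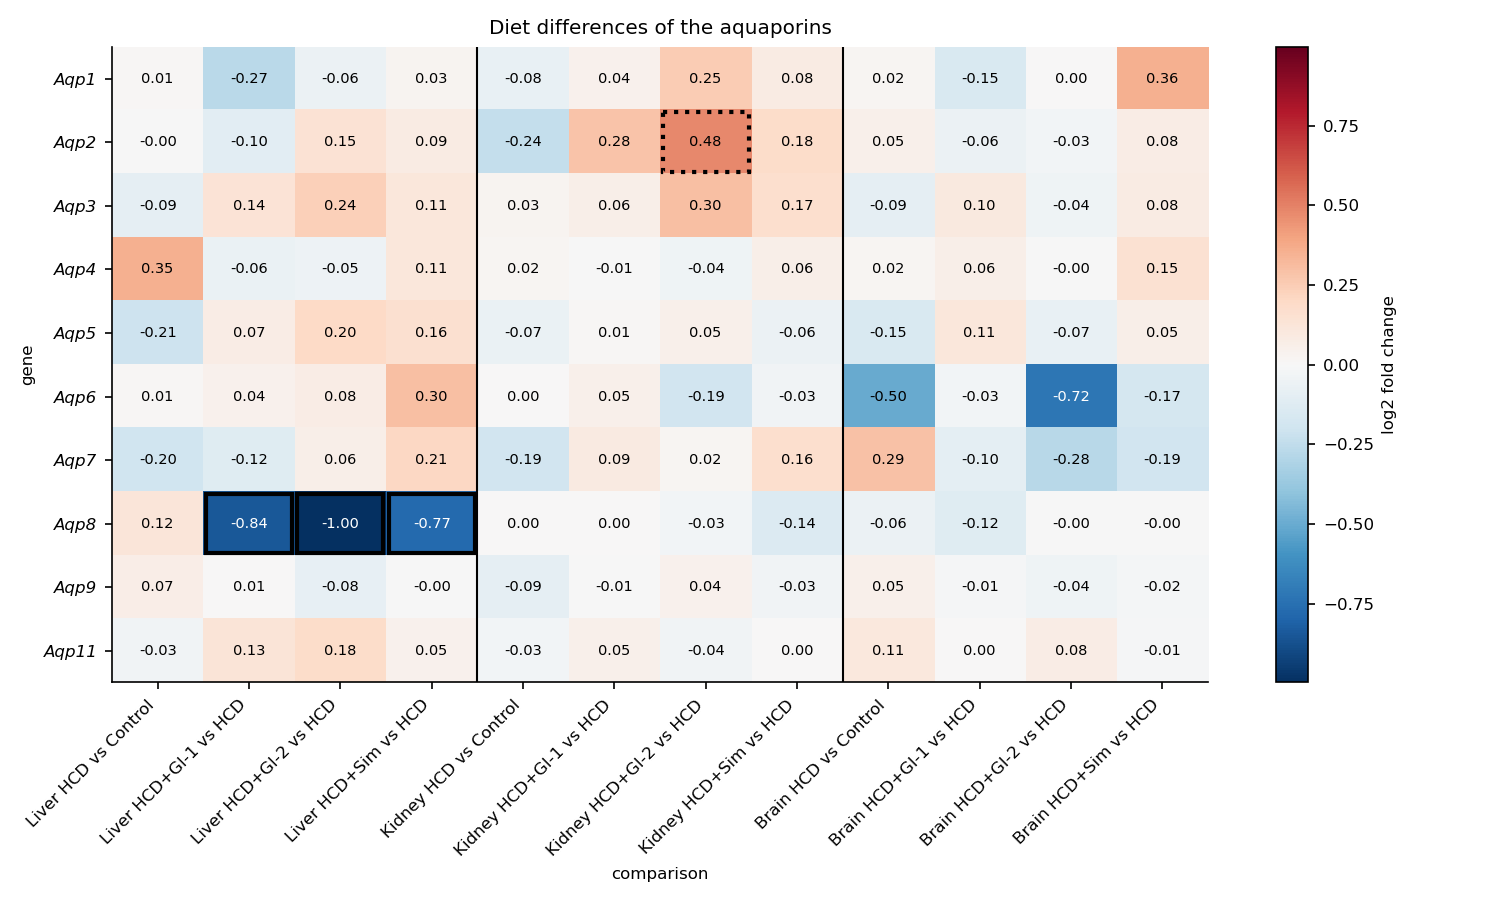
Log2 fold change of each aquaporin (rows) in 4 diet comparisons of liver, kidney and brain (columns), with red for higher and blue for lower in the first-named group. Solid frames mark DE genes and the dotted frame an adjusted p of at most 0.05 below the fold threshold; the 3 solid frames are all Aqp8 in liver, at -0.84, -0.996 and -0.77.

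Liver Aqp8, a water channel that also passes ammonia and hydrogen peroxide, fell in all 3 treated groups. In pools A, B and C it read 9.55, 9.70 and 9.52 on the Control diet and 9.79, 9.75 and 9.59 on HCD. It read 8.96, 8.71 and 8.94 with Gl-1, 8.77, 8.99 and 8.38 with Gl-2, and 9.00, 9.11 and 8.71 with simvastatin. Every one of the 9 treated arrays (8.38 to 9.11) lay below every one of the 6 untreated arrays (9.52 to 9.79), a separation that 44 of 22076 genes with a unique name showed in this direction (0.199%).

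Against HCD, Aqp8 was lower 1.79-fold with Gl-1 (log2 fold change -0.84 ± 0.126, adjusted p = 1.05e-04), 2.00-fold with Gl-2 (-0.996, 7.12e-06) and 1.71-fold with simvastatin (-0.77, 4.46e-04) in limma. The 3 comparisons share the HCD arrays. The calls used the spread of all 45 arrays. Fitted to the 6 compared arrays alone, the same differences gave adjusted p = 0.0162 for Gl-1, 0.089 for Gl-2 and 0.179 for simvastatin, and the simvastatin value fell to -0.65 without its pool C.

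HCD itself left Aqp8 within 0.12 of Control (95% interval -0.13 to 0.38, adjusted p = 0.838). Against Control, Aqp8 was DE with Gl-1 (-0.72, adjusted p = 4.48e-04), where 0.322% of all genes were DE, and with Gl-2 (-0.87, adjusted p = 1.48e-05), where 0.584% were. With simvastatin it stood at -0.65 (adjusted p = 0.00209), short of the fold threshold that 0.358% of genes passed. The treated groups did not separate from each other. Gl-2 against Gl-1, the extracts of mushrooms grown with and without acetylsalicylic acid and given at the same 1%, differed by -0.15 (interval -0.41 to 0.10, adjusted p = 0.537). Gl-1 against simvastatin differed by -0.07 (-0.33 to 0.18, adjusted p = 0.776) and Gl-2 against simvastatin by -0.23 (-0.48 to 0.03, adjusted p = 0.489). A test of any diet difference in liver called Aqp8 alone of the 10 (F test, adjusted p = 1.83e-07), against 8.7% of all genes.

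**Figure D3:**
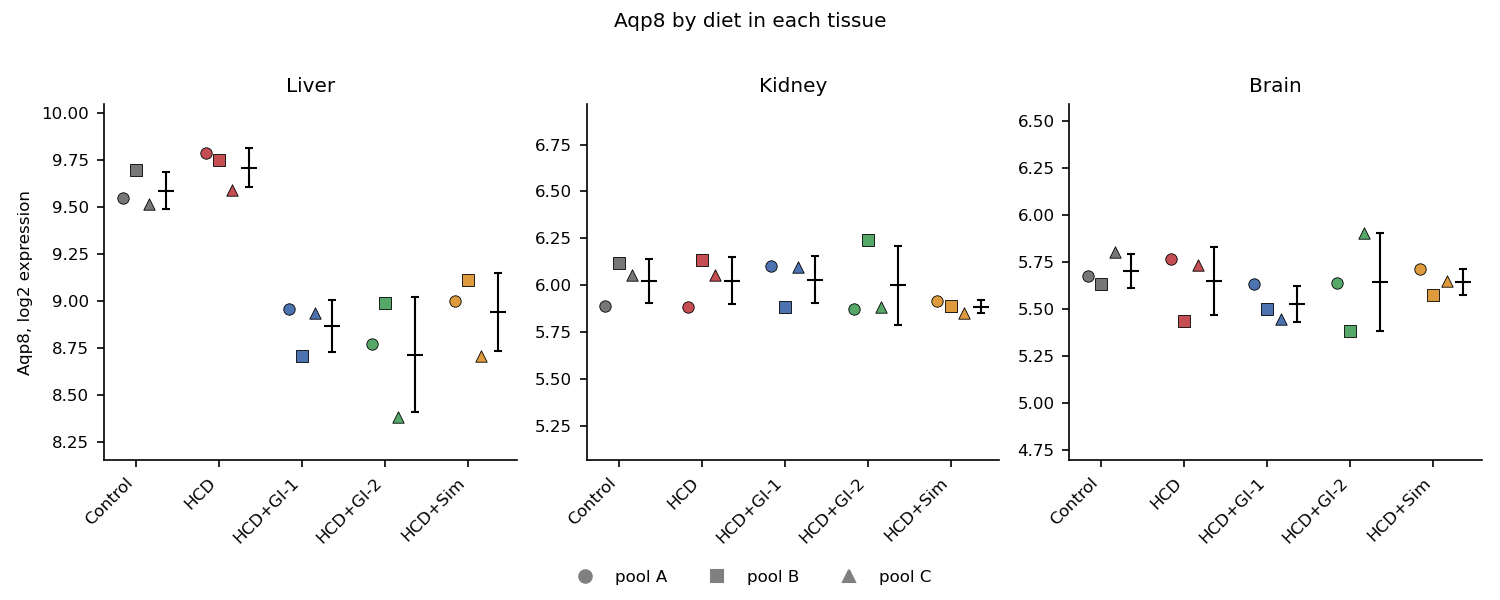
Aqp8 log2 expression by diet in liver, kidney and brain, with pools A, B and C as circles, squares and triangles and the mean ± SD of 3 arrays beside them; the panels span equal heights of different ranges. Liver steps down from 9.59 and 9.71 in Control and HCD to 8.87, 8.71 and 8.94 in the treated groups, whereas kidney group means stay between 5.89 and 6.03.

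The fall of Aqp8 was tested for a difference between tissues. Liver differed from kidney by -0.85 in the Gl-1 response (adjusted p = 0.0134) and -0.97 in that to Gl-2 (0.00172), where 0.389% and 0.625% of all genes differed, but the -0.63 for simvastatin did not pass (0.136, against 0.299% of genes). Liver differed from brain by -0.99 for Gl-2 (adjusted p = 0.00316, 0.598% of genes), while -0.72 for Gl-1 (0.054, 0.362%) and -0.77 for simvastatin (0.0693, 0.0996%) missed the threshold. Kidney and brain Aqp8 lay near background, where a fall of this size could hardly be measured, so these tests restate the fall in liver and do not show how Aqp8 responded elsewhere.

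Over the 15 liver arrays, the levels that ran closest to Aqp8 were those of the calcium-dependent kinase Camk1d (Pearson r = 0.949), the N-acyl amino acid enzyme Pm20d1 (0.947) and Acss2, which makes acetyl-CoA from acetate for lipid synthesis (0.941). Acss2 ranged from 9.77 to 10.4 in the untreated arrays and from 8.89 to 9.49 in the treated ones, and Camk1d from 9.42 to 9.79 and from 8.58 to 9.17. In both genes, as in Aqp8, no treated array reached an untreated one. Both were picked for their likeness to Aqp8 over these same arrays, so this split largely follows from the choice and adds no support.

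Of 14 genes listed for bile canaliculus transport, 0 were DE in liver with Gl-1, Gl-2 or simvastatin against HCD. The list medians were -0.00, -0.11 and -0.01, beside -0.01, 0.01 and 0.03 over all genes. The sterol exporters Abcg5 and Abcg8 in this list rose with HCD against Control (0.92 and 0.88), a comparison in which Aqp8 was not DE. Of 10 measured glycerol handling genes 0 were DE in any of the 4 liver comparisons, where 0.163% to 0.303% of all genes were. Their median was -0.11 with HCD against Control, and 0.07 (Gl-1), -0.08 (Gl-2) and 0.07 (simvastatin) against HCD. Over all genes the medians were -0.01, -0.01, 0.01 and 0.03. In the simvastatin livers, 9 of 11 pancreas acinar markers and 3 of 7 skeletal muscle markers were DE, all of them higher than in HCD. The mean log2 level of the acinar list was 7.36, 7.85 and 6.18 in pools A, B and C with simvastatin, and 6.00 to 6.09 in HCD. Pool C, lowest in these markers, also had the lowest Aqp8 of the 3. The part of these tissues in the Aqp8 value with simvastatin was not tested. With Gl-1 and Gl-2, 0 markers of either list were DE and Aqp8 was lower as well.

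Aqp9 held its liver level through all diets, with group means between 10.97 and 11.07. Aqp11 group means lay between 8.99 and 9.17, Aqp1 between 8.66 and 8.96. Without Aqp8, the 36 differences of the other 9 members in the 4 liver comparisons ranged from -0.27 to 0.35, with the lowest adjusted p at 0.0831. Between treatments, Aqp1 was lower with Gl-1 than with simvastatin (8.73, 8.80 and 8.45 against 8.97, 8.88 and 9.03, a log2 fold change of -0.30, adjusted p = 0.0421), with no overlap (as in 16% of all genes) but short of the fold threshold. The mean level of 6 endothelial markers moved with it, at 8.02 to 8.21 with Gl-1 and 8.23 to 8.35 with simvastatin. Against HCD, 0 of these 6 lay above 0 with Gl-1 (median -0.18) and 0 were DE. With Gl-2 the list stood at 8.10 to 8.18, while Aqp1 differed from HCD by -0.06. The part of endothelial cells in the Aqp1 values was not tested. Aqp7 differed by -0.32 in the same comparison (adjusted p = 0.0479), with both groups under the receptor percentile.

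In kidney no member was DE, and Aqp2 was the member called by the F test in the fit of all 45 arrays. Gl-2 gave its highest level. Aqp2 read 8.81, 8.96 and 8.76 on the Control diet, 8.61, 8.51 and 8.71 on HCD and 9.04, 9.18 and 9.03 with Gl-2. It read 8.94, 9.07 and 8.65 with Gl-1 and 8.75, 8.99 and 8.64 with simvastatin. All 3 Gl-2 arrays lay above all HCD and Control arrays, and all HCD arrays lay below all Control arrays. Of all genes, 20.4% had no overlap between Gl-2 and HCD, 18.3% between Gl-2 and Control and 13.2% between HCD and Control. In Aqp2, Gl-2 exceeded HCD by 0.48 ± 0.0957 (1.39-fold, adjusted p = 0.00341), short of the fold threshold. In the fit of all 45 arrays an adjusted p of 0.05 or less was reached by 0.996% of genes and by Aqp2 alone of the 10 members. Without pool B of the HCD kidneys the adjusted p was 0.0538. The F test over the 5 diets called Aqp2 (adjusted p = 0.0429) alone of the members, against 1.16% of all genes. HCD against Control (-0.24, adjusted p = 0.913) and Gl-2 against Control (0.24, adjusted p = 0.386) did not pass.

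Aqp3 and Aqp1 also had their highest kidney means with Gl-2, without passing the test. Aqp3 read 9.07, 8.89 and 9.13 on HCD and 9.24, 9.40 and 9.36 with Gl-2, a difference of 0.30 (adjusted p = 0.131). Aqp1 read 10.78, 10.80 and 10.92 on HCD and 11.08, 11.06 and 11.12 with Gl-2, a difference of 0.25 (adjusted p = 0.216). In both genes the Gl-2 arrays lay above the HCD arrays. Of the 10 members, 4 had no overlap in this comparison, beside 20.4% of all genes. Aqp6 was among them and went the other way, at 9.10 to 9.24 with Gl-2 and 9.32 to 9.39 on HCD. Fitted to the 15 kidney arrays alone, Aqp3 and Aqp1 had an adjusted p of 0.0283 and 0.0398, beside 0.0289 for Aqp2, all short of the fold threshold. The other measured kidney channels did not share this order, and Aqp4, Aqp6 and Aqp11 had their lowest means with Gl-2. Aqp4, which shares the basolateral membrane with Aqp3, differed by -0.04, and kidney group means of Aqp4 spanned 8.90 to 9.00. Aqp6, Aqp7 and Aqp11 differed by -0.19, 0.02 and -0.04.

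**Figure D4:**
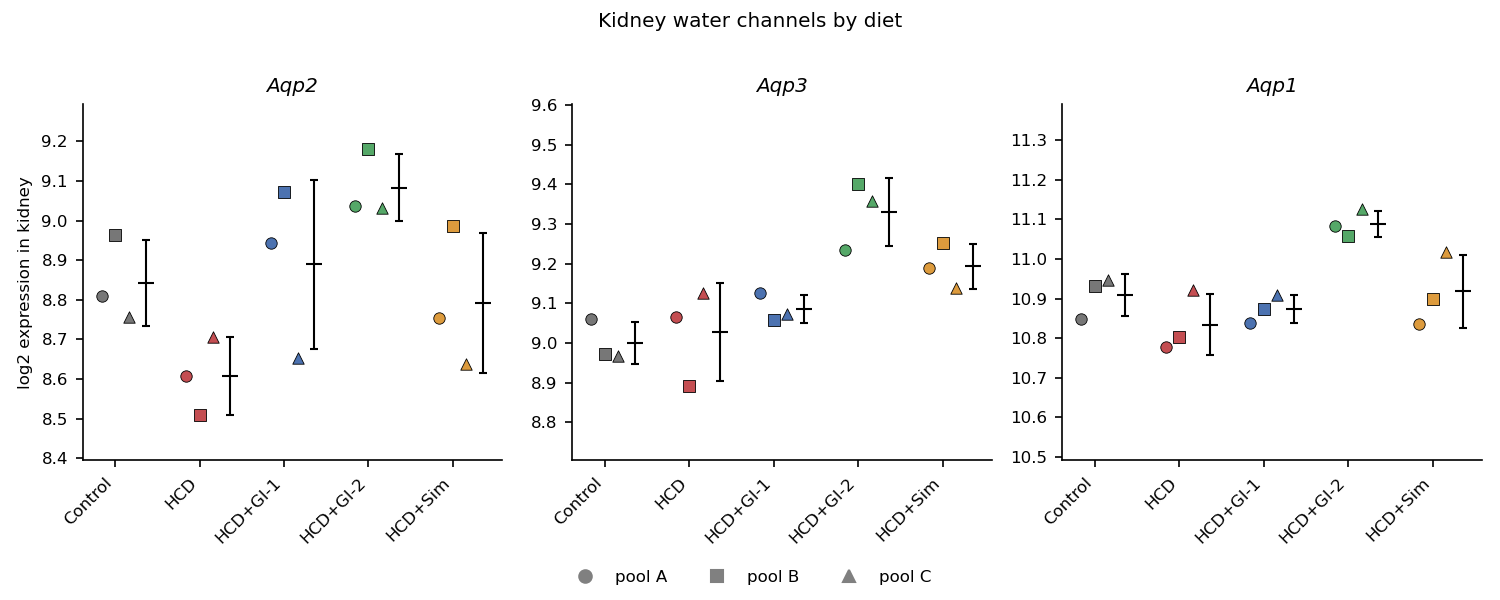
Log2 expression of Aqp2, Aqp3 and Aqp1 in kidney by diet, with pools A, B and C as circles, squares and triangles and the mean ± SD of 3 arrays beside them; the panels span equal heights of different ranges. Group means with Gl-2 are the highest in each panel, at 9.08, 9.33 and 11.09.

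Of 23 other genes of kidney water and salt reabsorption, 0 were DE with Gl-2 against HCD, 17 lay above 0 and the median was 0.15, beside 0.01 over all genes. In the same list, 19 of 23 lay above 0 with Gl-1 and 18 with simvastatin against the same HCD arrays, and 3 of 23 with HCD against Control. The list mean was 9.29 on HCD, 9.40 on the Control diet and with Gl-1, 9.41 with Gl-2 and 9.35 with simvastatin, so that HCD stood lowest. The osmolyte transporter Slc5a3 (0.59, adjusted p = 0.0325) had an adjusted p under the threshold at a fold short of it. The urea transporter Slc14a2 stood at 0.48 (adjusted p = 0.298) and the vasopressin receptor Avpr2 at -0.07 (adjusted p = 0.954). Of 8 intercalated cell genes, which share their cell type with Aqp6, 0 were DE and the median was -0.04. The 6 kidney markers of proximal tubule, thick limb and glomerulus had 0 DE genes and a median of -0.02. Markers of ductal epithelium, a list written for bile duct cells, lay above 0 in 6 of 7 genes with Gl-2 against HCD, with 0 DE and a median of 0.21. Their mean level was 7.60 to 7.63 with Gl-2 and 7.46 to 7.52 on HCD, without overlap, and it was 7.57 to 7.61 with Gl-1 and 7.56 to 7.63 with simvastatin. Of 10 squamous epithelium markers, Sprr1a was DE higher with Gl-2 (0.75, adjusted p = 0.00944). The part of these epithelia in the Aqp2, Aqp3 and Aqp1 values was not tested.

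In brain, Aqp1 was highest with simvastatin. It read 6.14, 6.20 and 6.08 on the Control diet, 6.20, 6.29 and 5.98 on HCD and 6.58, 6.44 and 6.52 with simvastatin. It read 6.05, 5.98 and 5.98 with Gl-1 and 5.91, 6.22 and 6.34 with Gl-2. The simvastatin arrays lay above all 12 others of the brain, which scattered around the receptor percentile of 6.06. Of all genes, 15.4% had no overlap between simvastatin and HCD alone in brain. The share that stood apart from all 12 other arrays, a stricter split, was not counted. The F test over the 5 diets called Aqp1 (adjusted p = 0.0159) alone of the members, against 0.371% of all genes. The single differences were 0.36 against HCD (1.28-fold, adjusted p = 0.198) and 0.38 against Control (adjusted p = 0.0606), and Gl-1 against simvastatin was -0.51 (adjusted p = 0.00824), short of the fold threshold. Of 7 choroid plexus and 6 endothelial markers, 0 were DE with simvastatin against HCD, a count that 0% of all genes DE fixed beforehand. Above 0 lay 5 of the 7 (median 0.08) and 4 of the 6 (median 0.11), beside a median of 0.00 over all genes. The choroid plexus list averaged 7.43 to 7.63 with simvastatin and 7.40 to 7.54 on HCD, so the 2 groups overlapped in it. The endothelial list averaged 7.25 to 7.39 and 7.22 to 7.24, without overlap. The part of these cells in the brain Aqp1 values was not tested.

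Aqp4, the channel of the astrocyte endfeet, was DE in no diet comparison of the brain. Its brain group means lay between 9.37 and 9.54, with differences against HCD of 0.06 for Gl-1, -0.00 for Gl-2 and 0.15 for simvastatin. Of 14 astrocyte endfoot genes 0 were DE in any of the 4 brain comparisons, where at most 0.0317% of all genes were. Such a share makes 0 of 14 likely for any list. The list medians were 0.02 with HCD against Control, and 0.03 (Gl-1), 0.00 (Gl-2) and -0.03 (simvastatin) against HCD. Over all genes the medians were 0.01, 0.02, 0.02 and 0.00. The arrays of a group differed more than the diets did, from 8.79 to 9.77 in the Control brains.

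Aqp6 was the member that varied most among brain arrays. Its SD within brain groups was 0.745, higher than in 99.9% of all genes, whose median was 0.111. It read 7.76, 7.93 and 5.40 on the Control diet and 6.73, 5.91 and 6.95 on HCD. It read 6.68, 6.34 and 6.49 with Gl-1, 5.77, 6.30 and 5.34 with Gl-2, and 6.30, 5.93 and 6.83 with simvastatin. Gl-2 had the lowest mean, and the groups overlapped except Gl-2 with Gl-1, which 11.1% of all genes kept apart. Gl-2 against HCD was -0.72 ± 0.347 (adjusted p = 0.725) and HCD against Control -0.50 (adjusted p = 0.905).

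In Aqp6 the Control brain pools stood apart. Pool C, stated to combine pools A and B, lay 2.45 below the level that an equal mix of their signals would give, the 1 of 150 pairs of member and group that was off by over 1. In Control brain 203 of 22076 genes were off by over 1, and in the other 14 groups between 1 and 48. Control brain pools A and B differed from each other by over 1 in 4 genes, and an equal mix would lie between them. What the pool C array of Control brain holds was not tested. Without that array HCD against Control was -1.32 in Aqp6 (adjusted p = 8.88e-04), and Aqp6 was then 1 of 139 DE genes in place of 7.

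Aqp6 ran with markers of the cerebellum over the 15 brain arrays. The 12 markers, a list written after the Aqp6 values had been seen, include the granule cell genes Gabra6, Cbln3 and Fat2 and the Purkinje cell gene Pcp2. Each of the 12 had a Pearson r with Aqp6 between 0.885 and 0.986. Of the 12, 10 had a coefficient over 0.9, as did 1.07% of all genes. The list was written with these values known, and Fat2 is itself among the genes closest to Aqp6. The coefficients therefore describe the likeness and add no support. The list mean had 0.973, or 0.973 again without the 2 arrays farthest from its median. The mean log2 level of the list was 9.50, 9.98 and 6.72 in Control pools A, B and C, 8.02 to 9.05 on HCD, 8.46 to 8.65 with Gl-1, 6.97 to 8.16 with Gl-2 and 7.78 to 8.86 with simvastatin. With Aqp4 the list mean had an r of 0.817. The arrays share pools and normalization, and the part of the sampled brain region in the Aqp6 values was not tested.

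**Figure D5:**
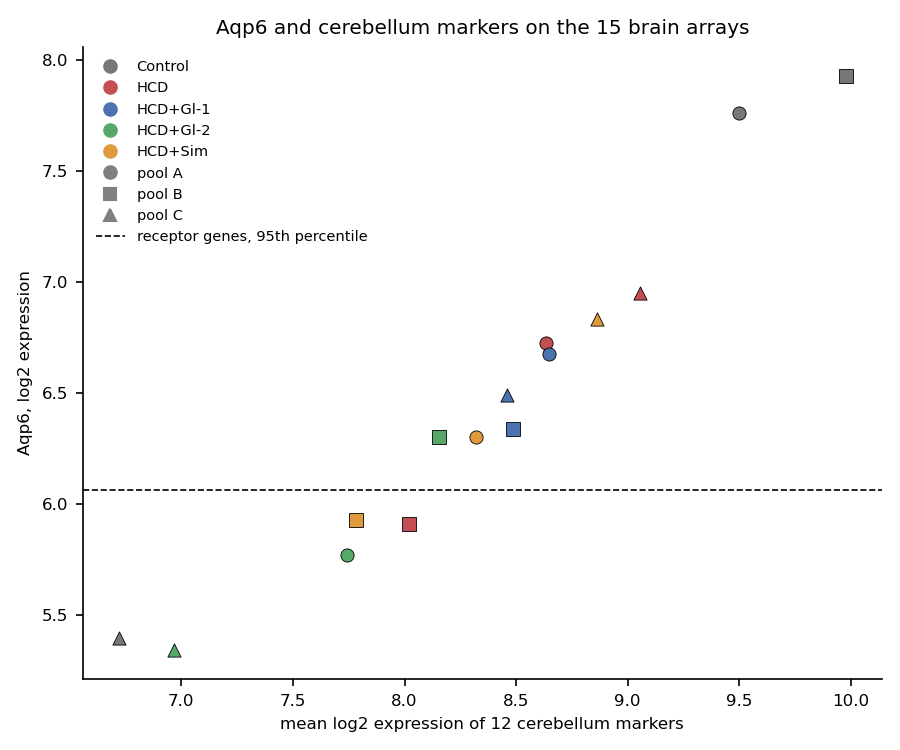
Aqp6 log2 expression (y axis) against the mean log2 expression of 12 cerebellum markers (x axis) on the 15 brain arrays, with diets as colours, pools as shapes and the dashed line at the brain receptor percentile of 6.06. Control pools A and B lie at the upper right, at 9.50 and 9.98 on the x axis, and Control pool C at the lower left, at 6.72.

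In brain, 2 of 6 olfactory bulb markers also moved. Cdhr1 and Doc2g were DE higher with HCD against Control (1.03 and 0.86) and DE lower with Gl-2 against HCD (-0.86 and -0.90). Of all 6, 4 lay above 0 with HCD against Control (median 0.49) and 1 with Gl-2 against HCD (median -0.45). No aquaporin was DE in these comparisons, and in Aqp7 the values were 0.29 and -0.28, with all brain arrays under the receptor percentile.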

How the data were processed

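Total RNA of liver, kidney and brain was hybridised to 45 Affymetrix Mouse Gene ST v1.0 arrays, 15 per tissue and 3 per group. The authors used RMA background correction, quantile normalization and ComBat, chose 1 probe set per gene by interquartile range, and deposited log2 values. Which batches ComBat adjusted is not given in the sources used here. Tissue, diet and pool came from each array's title.

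All arrays entered a single limma fit of 15 group means (limma 3.58.1, R 4.3.3) with moderated variances, and p-values were adjusted by Benjamini-Hochberg over 22080 genes per comparison. DE genes needed an adjusted p not above 0.05 and a log2 change past 0.7 either way, and differences between tissues the adjusted p alone. The script was tested on simulated data. The 10 members, the gene lists and the alternatives were chosen with earlier results of these data known. All members are reported, and a gene that the naming rules would give is not reported here. Of each list, up to 3 DE genes per comparison and those that show what it holds are named, beside the genes with the highest Pearson r with a member and tissue markers. The cerebellum list, and the likeness of Aqp6 to it, were added after its values were seen. Promoters are RefSeq sequences (GRCm38.p6). Alternatives were a fit to the tissue's arrays, a fit to the arrays compared, leaving out every pool C, a pool letter block, no dim genes, normalization within tissue, trend and robust moderation, no fold threshold, and each array left out. Plots used matplotlib 3.10.9 (Python 3.11.15).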

Additional observations from a re-analysis of the deposited data

Results flagged for a closer look

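The measured change of Aqp8 differed between tissues by the limma test of the difference itself, with Benjamini-Hochberg adjustment over all genes. Its change with Gl-1 against HCD differed between liver and kidney by -0.85 ± 0.178 (SE, adjusted p = 0.0134). Its change with Gl-2 differed between liver and kidney by -0.97 (adjusted p = 0.00172) and between liver and brain by -0.99 (adjusted p = 0.00316). In liver all 3 arrays of each extract lay below all HCD arrays. Of all genes, 14.7% had no overlap with HCD for Gl-1 and 15.2% for Gl-2. Kidney and brain Aqp8 lay near the background range on every diet. A fall of this size could hardly be measured there, so the test restates the liver values and leaves the response of the other tissues unknown. Groups of 3 arrays were not screened for outlying samples.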

How the results depend on the processing

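Aqp8 was the DE aquaporin between diets in liver, a count of 1, under every alternative run, arrays left out included. Its single calls were less firm: fitted on the compared groups only, Gl-2 against HCD (-0.996, adjusted p = 0.089) and simvastatin against HCD (-0.77, 0.179) were lost, and fitted on liver arrays only the simvastatin call (-0.77, 0.0727). With each array left out the simvastatin value ranged from -0.86 to -0.65, and without its pool C it was short of the fold threshold (adjusted p = 0.00607). These fits used fewer arrays, and the cause was not tested further. In kidney the count of 0 became 1 (Aqp2) with no fold threshold. In brain the count of 0 became 1 (Aqp6, HCD against Control) with pools A and B only and without pool C of the Control brains, so that leaving out arrays gave 0 to 1. Between Control liver and brain the 6 DE members became 10 with no fold threshold. The other alternatives kept the diet calls recomputed, and DE members numbered 7 to 10 between Control liver and kidney, 6 to 7 between liver and brain and 5 to 8 between kidney and brain, where Aqp4 was added without pool C of the Control brains. Fitted on kidney arrays only, Aqp3 and Aqp1 had an adjusted p of 0.0283 and 0.0398 with Gl-2. Pool letters did not clearly pair the diets within a tissue. Arrays of 1 letter had a median correlation of deviations of 0.0728 (liver), -0.00125 (kidney) and -0.0265 (brain). Arrays of different letters had -0.0414, -0.0013 and 0.00461. Pairing between tissues, which may come from the same mice, was neither checked nor modelled in the tissue comparisons. With the replicate block, a fit made for the diet comparisons only, Aqp8 kept -0.84, -0.996 and -0.77 (adjusted p = 2.97e-05, 1.15e-06 and 8.95e-05). Precision is limited by 3 arrays from 2 separate pools a group, and for Aqp8 and Aqp9 in kidney and brain Aqp7 in liver and brain and Aqp6 in liver by signals near background.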
